A study of Homo sapiens with 26 samples.

Results

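High glucose was compared with normal glucose in WT 16HBE14o- cells, an immortalised line of human bronchial epithelial cells that carries WT CFTR. Membership was set by the labels alone: the 5 WT libraries labelled high glucose and the 6 WT libraries labelled normal glucose, 11 of the 26 libraries of the series, were compared over all genes of the count table. The treated cells were kept in medium with 17.5 mM glucose for 7 days with daily changes, and the cells they were set against had 5.5 mM glucose for the same time. Both groups were grown on Transwell inserts at 250000 cells per well, and 2 Transwells were pooled into each sample. The labels name the barrier of airway epithelium under hyperglycemia as the question. The other libraries were 12 of a CF derivative (16HBEge, DeltaF508 CFTR) in the same media and 3 of WT cells labelled as not polarized, which entered no comparison here. A line is a single cell source, and no label says whether each library is a culture of its own, so the p-values cover only how much these samples varied, which may be technical.

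Glucose enters epithelial cells through facilitative transporters and is trapped by hexokinase. Glucose-6-phosphate moves the paired transcription factors MondoA and MLX to E boxes in promoters, and TXNIP and ARRDC4, 2 alpha-arrestins that help clear glucose transporters from the cell surface, are their best known targets. In the airway, junction proteins, laminins and ion transporters together hold the barrier, and Notch signalling between neighbouring cells directs how basal cells differentiate.

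The 11 libraries held 15247622 to 20413839 counts, and 16338 of the 58735 genes listed passed the filter on low counts and were tested. General epithelial markers (EPCAM, CDH1, KRT7, KRT8, KRT18, KRT19 and 5 more) summed to 6119 to 6664 CPM (read counts scaled to library size) in high glucose and 6456 to 7447 CPM in normal glucose. Markers of secretory and goblet cells were near 0, with BPIFA1, BPIFB1, MUC5AC, TFF3 and CLCA1 at 0 in all 11 libraries, and their summed level was at most 0.984 CPM. Ciliated markers summed to 20.8 to 23.1 CPM in high glucose and 21.1 to 26.4 CPM in normal glucose, and SNTN was at 0 in all 11. Fibroblast markers summed to 179 to 198 CPM in high glucose and 205 to 231 CPM in normal glucose, although 8 of the 10 had a mean under 1 CPM and PDGFRA was at 0. Immune markers summed to 6.56 to 9.52 CPM in high glucose and 5.13 to 9.35 CPM in normal glucose, with MS4A1 at 0 in all 11. In bulk RNA, fewer cells of a type and less RNA per cell cannot be told apart. Libraries numbered 4 to 6 stood apart from those numbered 1 to 3 in both glucose groups: the first principal component, 29.5% of the variance of the 11 libraries, separated the numbers, and the second, 14.8%, separated the glucose groups. Normal glucose library 1 lay between, at 2.09 on the first component. The other libraries numbered 1 to 3 were at 11.6 to 27.6 and those numbered 4 to 6 at -27.6 to -17.0. The labels name no batch, so the fit carried a term for the 2 sets of numbers.

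Many genes differed between the media by small amounts. Of 16338 genes tested, 1418 were called at an adjusted p under 0.05 (8.68%), 674 of them higher in high glucose (4.13% of those tested) and 744 lower (4.55%). The median change of a called gene was 1.22-fold. Without high glucose library 5 the genes called lower numbered 468. Of the called genes, 106 rose and 77 fell by at least 1.5-fold, and 27 rose and 12 fell by at least 2-fold. All 5 high glucose libraries lay on one side of all 6 normal glucose libraries for 506 of the called genes, against 665 of all genes tested (4.07%). The gene lists used below were chosen with earlier results of these data known. Their shares and medians are therefore descriptions and not a test of enrichment. A count of calls in a list is to be read against the 8.68% of all genes and 10.1% of protein-coding genes called.

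The protein-coding genes with the largest rises took in both glucose-induced alpha-arrestins, a kinase of sodium transport and a vitamin D enzyme. TXNIP (chromosome 1, 145992435 to 145996600, GRCh38) was at 657, 731, 705, 618 and 629.8 CPM in the 5 high glucose libraries, against a lowest, median and highest of 217, 287 and 353 CPM in the 6 normal glucose libraries. ARRDC4 (chromosome 15, 97960698 to 97973838) was at 95.7, 96.8, 99.8, 93.3 and 95.1 CPM in high glucose, against 33.5, 41.8 and 57.7 CPM (lowest, median and highest) in normal glucose. For both alpha-arrestins each high glucose library was above each normal glucose library, and the normal glucose libraries were the more spread. TXNIP rose by 1.17 ± 0.15 on the log2 scale (SE; edgeR quasi-likelihood test, Benjamini-Hochberg adjusted p = 5.7e-05) and ARRDC4 by 1.12 ± 0.14 (adjusted p = 5.1e-05).

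SGK1, the serum and glucocorticoid regulated kinase that keeps sodium channels at the membrane, was at 13.4, 12.3, 15.4, 15.8 and 15.9 CPM in high glucose and at 5.89, 6.75 and 7.16 CPM in normal glucose (lowest, median and highest), and rose by 1.16 ± 0.12 (adjusted p = 1.6e-08). Its groups lay apart, with no library of one medium among those of the other. CYP24A1, which breaks down active vitamin D, rose by 0.99 ± 0.16 (adjusted p = 4.9e-05), with 5.18 to 8.08 CPM in high glucose and 2.99 to 4.16 CPM in normal glucose. ADAM19, a membrane metalloproteinase, rose by 0.94 ± 0.17 (adjusted p = 0.0012), and its highest normal glucose library, number 1 at 20.9 CPM, stood above the other 5. TSPAN18, a tetraspanin, rose by 0.94 ± 0.14 (adjusted p = 3.1e-05). CD44, the hyaluronan receptor, was at 31.8, 36.4, 33.8, 36.1 and 37.2 CPM in high glucose and at 16.0, 18.8 and 22.3 CPM in normal glucose (lowest, median and highest), a rise of 0.90 ± 0.15 (adjusted p = 0.00051). Its groups did not overlap.

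**Figure D1:**
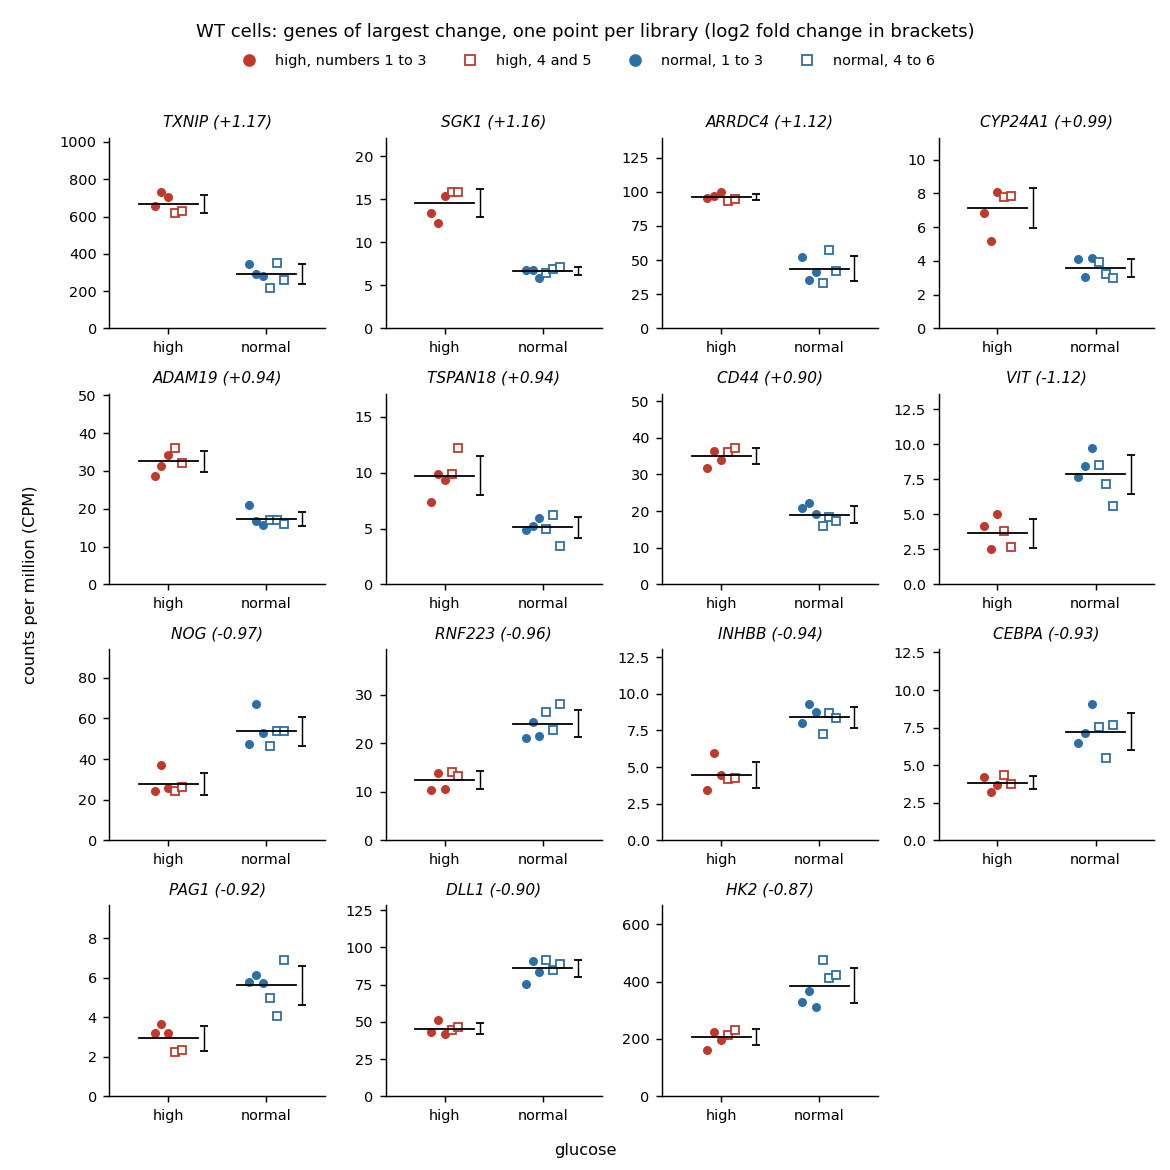
CPM of 15 genes with the largest changes in WT cells, 7 that rose and 8 that fell, 1 point per library, high glucose (5 libraries) left of normal glucose (6 libraries). Filled circles are libraries numbered 1 to 3 and open squares those numbered 4 to 6, lines are means and bars are 1 SD, each axis starts at 0, and in each of the 15 panels the 2 groups do not overlap.

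The 8 largest falls were in VIT, NOG, RNF223, INHBB, CEBPA, PAG1, DLL1 and HK2. VIT, which encodes the matrix protein vitrin, was at 4.16, 2.49, 5.04, 3.77 and 2.69 CPM in high glucose, against 5.61, 8.07 and 9.72 CPM in normal glucose (lowest, median and highest), a log2 fold change of -1.12 ± 0.18 (adjusted p = 6e-05). DLL1, a Notch ligand on chromosome 6, was at 43.1, 51.1, 42.0, 44.5 and 46.9 CPM in high glucose, against 75.7, 86.8 and 91.6 CPM in normal glucose. The 2 groups of DLL1 values lay far apart relative to their spread, and its log2 fold change of -0.90 ± 0.067 had an adjusted p of 7.5e-12. NOG, the secreted BMP antagonist noggin, was at 24.5, 37.0, 25.5, 24.2 and 26.4 CPM in high glucose and at 46.5, 53.2 and 67.1 CPM in normal glucose (lowest, median and highest), with a log2 fold change of -0.97 ± 0.13 (adjusted p = 5.1e-05). The number 2 library was the highest of its group in both media, and the groups still did not overlap. INHBB, the beta B chain of activins and inhibins, had a log2 fold change of -0.94 ± 0.12 (adjusted p = 1.7e-06), with 3.47 to 5.97 CPM in high glucose and 7.29 to 9.31 CPM in normal glucose. CEBPA, a transcription factor of epithelial and myeloid differentiation, was at 4.22, 3.21, 3.69, 4.34 and 3.74 CPM in high glucose and at 5.49, 7.36 and 9.07 CPM in normal glucose, a log2 fold change of -0.93 ± 0.16 (adjusted p = 0.00013). PAG1, a membrane adaptor that recruits the kinase CSK, had a log2 fold change of -0.92 ± 0.20 (adjusted p = 0.0034), and RNF223, a RING finger gene, had -0.96 ± 0.10 (adjusted p = 4.5e-08). HK2 completed the 8 and is described with glucose uptake.

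HK2 and the transporters SLC2A1 and SLC2A3, which take up and trap glucose, fell, in the direction opposite to TXNIP and ARRDC4. HK2, the regulated hexokinase, was at 161, 225, 197, 213 and 232 CPM in high glucose, against 310.1, 391 and 476 CPM in normal glucose (lowest, median and highest), and its log2 fold change was -0.87 ± 0.11 (adjusted p = 2.5e-05). SLC2A3, the transporter GLUT3, was at 765, 954, 826, 994 and 963 CPM in high glucose and 1098, 1244 and 1384 CPM in normal glucose, a change of -0.44 ± 0.054 (adjusted p = 9e-07). SLC2A1, the transporter GLUT1, was at 431, 499, 449, 458 and 448 CPM in high glucose and 546, 595 and 654 CPM in normal glucose, a change of -0.37 ± 0.071 (adjusted p = 0.00083). None of the 3 overlapped between the groups. In the transporter list 3 of 11 tested members rose and 2 fell, the risers being SLC2A10 (0.30, 30.1 to 35.4 CPM in high glucose and 22.3 to 30.7 CPM in normal glucose), SLC2A12 (0.22) and SLC2A9 (0.68, at a mean of 2.05 CPM in high glucose and 1.30 CPM in normal glucose). The call of SLC2A9 was lost without any 1 of 5 libraries (high glucose 2, 3 and 4, normal glucose 5 and 6). In the list of alpha-arrestins and glucose-sensing regulators 4 of 10 tested members rose and 1 fell. KLF10 and KLF11, Krüppel-like repressors known as glucose-responsive, rose by 0.61 and 0.31, and ARRDC3, an arrestin of receptor trafficking, changed by -0.75 with 99.0 to 151 CPM in high glucose and 176 to 258 CPM in normal glucose.

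E boxes of the sequence CACGTG, the palindromic site of MLX, MYC and related factors, were looked for in the 250 bases before the RefSeq starts (GRCh38.p14) of the 16 genes of largest change, 10 of which had a window in the table used. ARRDC4 and HK2, whose levels went in opposite directions, were the 2 that held one, and both are shown with the E boxes in capitals because their values are those of glucose sensing and glucose trapping. TXNIP had 2 windows, and neither held one. The HK2 stretch comes from 1 of 2 listed starts, the second of which held none. Of 35116 windows in the table, 6.34% held at least 1 CACGTG in these bases. A match is a description of letters, and binding was not measured.
ARRDC4 (chr15:97960463-97960528, + strand, 240 to 175 bases before the start): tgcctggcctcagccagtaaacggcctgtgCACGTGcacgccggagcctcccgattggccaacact
HK2 (chr2:74834946-74835056, + strand, 224 to 114 bases before the start): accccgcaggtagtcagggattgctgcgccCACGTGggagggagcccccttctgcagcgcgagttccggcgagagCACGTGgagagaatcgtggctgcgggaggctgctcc

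The glycolysis list held more falls than rises. Of 34 tested members of the glycolysis, pyruvate and lactate list, 3 rose and 8 fell, and the list's median log2 fold change was -0.09, against -0.003 over all genes tested. Beside HK2, the falls were in PFKL, the liver-type phosphofructokinase (-0.26 ± 0.045, adjusted p = 0.00017), PDK1, which restrains pyruvate dehydrogenase (-0.33 ± 0.061, adjusted p = 0.00045), PFKFB4, ALDOA, GAPDH, PGK1 and PGAM1. PFKL was at 359 to 384 CPM in high glucose and 432 to 465 CPM in normal glucose, and PDK1 at 63.1 to 79.7 CPM and 81.3 to 101 CPM in the same order of media, so neither overlapped. GAPDH changed by -0.20, PGK1 by -0.17 and PGAM1 by -0.16, small differences in genes with processed pseudogenes that can share reads. The 3 risers were HK1 (0.18), the lactate and pyruvate transporter SLC16A1 (0.23) and the phosphatase PDP1 (0.20). The call of PFKFB4 (-0.46) was lost without high glucose library 4 or 5, that of HK1 without any 1 of 4 libraries, that of PGK1 without any 1 of 6 libraries and that of PGAM1 without any 1 of 8 libraries. ALDOA changed by -0.36.

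In the polyol and hexosamine list 3 of 15 tested members rose and 1 fell, 26.7% of those tested, against 32.4% in the glycolysis list and 8.68% of all genes. GFPT2, which starts the hexosamine pathway, was at 13.2, 14.7, 12.6, 12.3 and 13.5 CPM in high glucose and 6.89, 7.72 and 9.55 CPM in normal glucose (lowest, median and highest), a rise of 0.77 ± 0.15 with no overlap (adjusted p = 0.0012). AKR1B1, the aldose reductase that makes sorbitol, rose by 0.39 ± 0.098 (adjusted p = 0.0083), and its lowest high glucose library, at 17.5 CPM, overlapped the highest normal glucose library, at 18.3 CPM. UAP1, a later hexosamine enzyme, rose by 0.22, and its paralog UAP1L1 changed by -0.33 ± 0.080 (adjusted p = 0.0054). In the glycogen list 2 of 18 rose, the primer protein GYG1 (0.32) and the phosphorylase PYGB (0.18), and 1 fell, the phosphatase subunit PPP1R3G (-0.54). These were 16.7% of those tested. The call of PYGB was lost without high glucose library 4 or 5 or normal glucose library 1 or 2. In the list of pentose phosphate and NRF2 target genes 2 of 26 rose and 1 fell, 11.5% of those tested against 8.68% of all genes. The fall was in the heme oxygenase HMOX1, at 13.2 to 18.4 CPM in high glucose and 19.5 to 25.5 CPM in normal glucose, without overlap (-0.47 ± 0.090, adjusted p = 0.00051). GCLM, a subunit of the enzyme that starts glutathione synthesis, rose by 0.24, a call lost without normal glucose library 3, and ABCC3, an organic anion pump, rose by 0.21, a call lost without high glucose library 1 or 3.

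Targets of the hypoxia factor HIF gave 8 falls, and HIF1A itself was the 1 rise. Of 34 tested members of the HIF list, 1 rose and 8 fell, with a median of -0.14 against -0.003 over all genes. HIF1A was at 109 to 152 CPM in high glucose and 82.3 to 107 CPM in normal glucose, a rise of 0.39 without overlap (adjusted p = 0.005). ADM, the vasodilator peptide adrenomedullin, was at 39.3, 49.4, 36.0, 59.1 and 50.0 CPM in high glucose and 64.8, 82.0 and 90.7 CPM in normal glucose (lowest, median and highest), a change of -0.73 ± 0.13 (adjusted p = 0.00097). The groups of ADM did not overlap. KDM4B, a histone demethylase, changed by -0.37 ± 0.060 (adjusted p = 5.1e-05) and EGLN1, the prolyl hydroxylase that lets HIF be degraded when oxygen is present, by -0.28 ± 0.062 (adjusted p = 0.0027). The other falls were EGLN3 (-0.32), KDM3A (-0.26), ANKRD37 (-0.73), ANGPTL4 (-0.52) and MXI1 (-0.24), of which EGLN3 lost the call without high glucose library 1, ANKRD37 without high glucose library 1 or 3 or normal glucose library 2, ANGPTL4 without any 1 of 5 libraries and MXI1 without any 1 of 9 libraries.

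In the sterol and fatty acid synthesis list 7 of 34 tested members rose, 1 fell and 26 were not called. MSMO1, a sterol oxidase, was at 315, 313, 327, 245 and 209 CPM in high glucose and 177, 213 and 252 CPM in normal glucose, and rose by 0.33 ± 0.055 (adjusted p = 7.5e-05). Its groups overlapped across the sets of numbers but not within either set, and without the number term it was not called (adjusted p = 0.16). FDFT1, the squalene synthase, rose by 0.29 ± 0.056 with 199.6 to 231 CPM in high glucose and 161 to 192 CPM in normal glucose (adjusted p = 0.00053), a call also lost without the number term. The other risers were FDPS (0.19), ACLY (0.20), ELOVL6 (0.28), FADS1 (0.15) and ACSS2 (0.25). The call of ACLY was lost without high glucose library 4 or normal glucose library 2, that of ELOVL6 without any 1 of 5 libraries and that of FADS1 without any 1 of 6 libraries. SREBF1, which encodes the master regulator of lipid synthesis SREBP1, was at 145, 132, 139, 177 and 170.5 CPM in high glucose and 194, 206 and 232 CPM in normal glucose (lowest, median and highest), a change of -0.44 ± 0.061 without overlap (adjusted p = 6e-06). In the lipid droplet and fatty acid oxidation list 2 of 23 rose, 3 fell and 18 were not called. G0S2, which inhibits the triglyceride lipase, rose by 0.79 ± 0.15 (94.0 to 176 CPM in high glucose, 55.2 to 98.1 CPM in normal glucose, adjusted p = 0.0026), and PNPLA2, that lipase, changed by -0.32 ± 0.062 (adjusted p = 0.00053). DGAT2, which makes triglyceride, rose by 0.38, and the droplet coat protein PLIN2 changed by -0.35 (25.1 to 29.6 CPM in high glucose, 30.2 to 39.8 CPM in normal glucose). The remaining fall was ANGPTL4, given with the HIF list.

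Of 13 genes for proteins encoded in mitochondrial DNA, 1 was called (7.69%, against 8.68% of all genes), MT-ND3 (-0.38 ± 0.095, adjusted p = 0.014). Its call was lost in WT libraries alone, in libraries 4 to 6 alone and from FPKM without a filter. All 13 had a log2 fold change below 0. The median was -0.17, with -0.27 in libraries 1 to 3 and -0.06 in libraries 4 to 6. Of 71 nuclear-encoded respiratory chain subunits 1 fell (1.41% of those tested), ATP5MC2 (-0.22), and none rose. The call of ATP5MC2 was lost without the number term and in libraries 1 to 3 alone. The median of these subunits was -0.03. In the tricarboxylic acid cycle 2 of 18 rose, IDH3A (0.31) and CS (0.18), a call lost without high glucose library 3 or 5 or normal glucose library 2, and 2 fell, IDH2 (-0.18) and PC (-0.30), a call lost without high glucose library 5. IDH2 lost its call without the number term and in each set of numbers alone. The calls of this list were 22.2% of those tested. Of 81 ribosomal protein genes 6 fell, RPS28 (-0.35 ± 0.066, adjusted p = 0.00056), RPL13, RPL28, RPL10A and RPLP0 among them, and none rose. The share called was 7.41%, against 8.68% of all genes tested. The median of the 81 was -0.10, and the call of RPS28 was the only one kept without each WT library in turn. RPL13 lost its call without high glucose library 5, RPL28 without high glucose library 4, RPL10A without high glucose library 5 or normal glucose library 2 and RPLP0 without any 1 of 8 libraries. Ribosomal protein reads made up 2.53% to 3.80% of counts in high glucose and 2.73% to 4.16% in normal glucose, and their genes share reads with many pseudogenes.

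**Figure D2:**
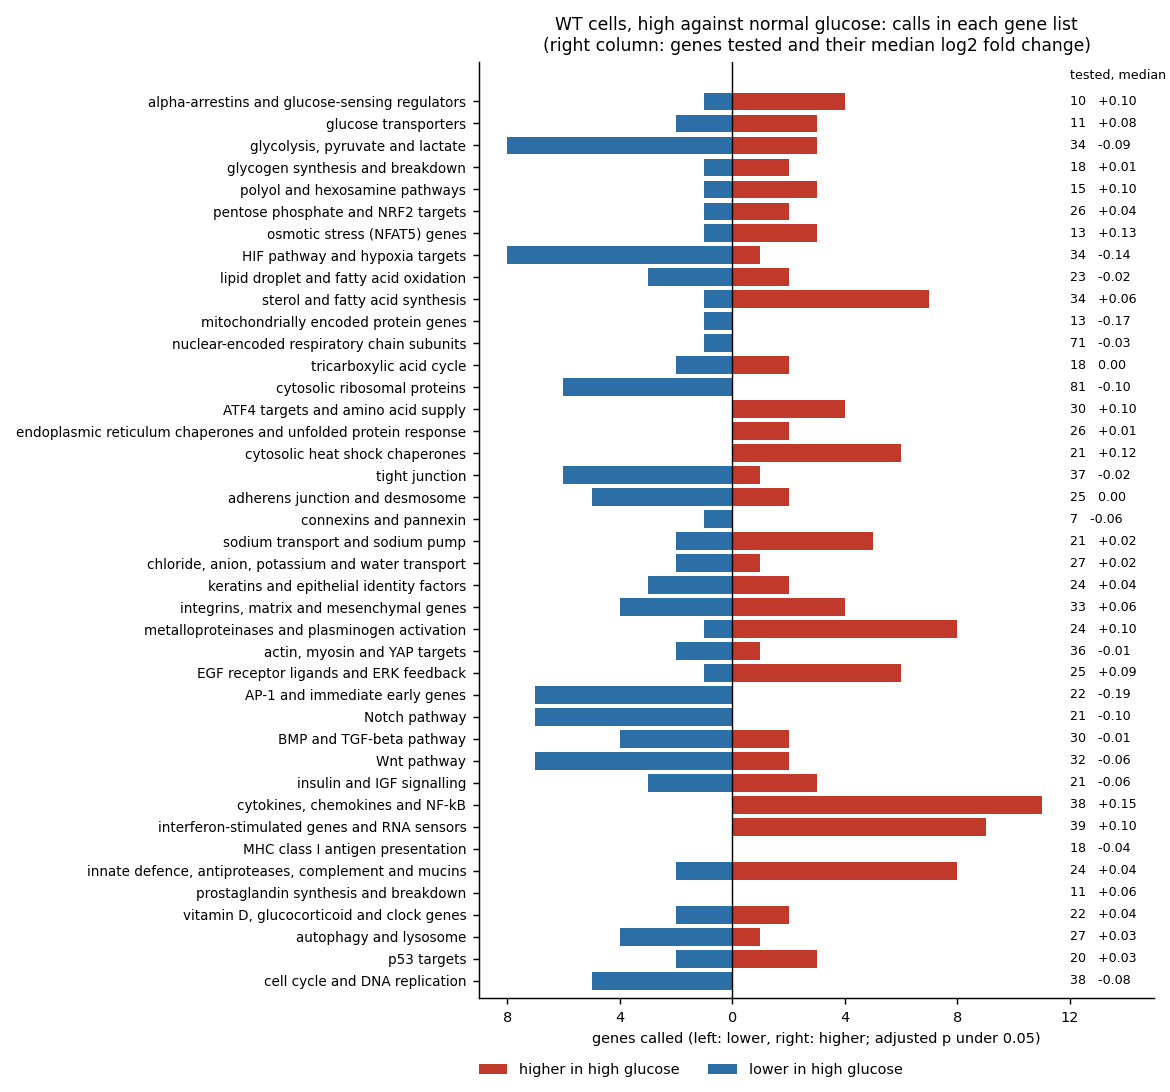
Number of genes called in WT cells in each of 41 gene lists, those lower in high glucose to the left of 0 and those higher to the right (adjusted p under 0.05, edgeR), with the genes tested and their median log2 fold change in the right column. Of the lists with more than 1 call, the cytokine, interferon, ATF4, ER chaperone and heat shock lists held rises only, and the AP-1, Notch, ribosomal and cell cycle lists held falls only, the share called being 7.69% in the ER chaperone and 7.41% in the ribosomal list, below the 8.68% over all genes tested.

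Of 21 tested chaperones of the cytosol 6 rose by small amounts and none fell, the median being 0.12. HSPH1, a disaggregating partner of HSP70, was at 170.0, 166, 182, 179 and 161 CPM in high glucose and 127, 134 and 151 CPM in normal glucose, a rise of 0.33 ± 0.055 without overlap (adjusted p = 9.5e-05). HSPA4 rose by 0.23, HSP90AB1 by 0.18, DNAJB6 by 0.18, AHSA1 by 0.22 and STIP1 by 0.17, and of the 6 calls that of HSP90AB1 was lost without high glucose library 3 or normal glucose library 4 or 6. Of 26 endoplasmic reticulum and unfolded protein response genes 2 rose, the oxidase ERO1B (0.45) and the sensor ERN1 (0.29, a call lost without normal glucose library 4 or 6). That was 7.69% of those tested, against 8.68% of all genes. Of 30 genes of amino acid supply and ATF4, 4 rose and none fell: the glycine transporter SLC6A9 (0.36 ± 0.084, adjusted p = 0.0059), WARS (0.28), PSPH (0.32) and SLC38A2 (0.19), of which the call of PSPH was lost without any 1 of 5 libraries and that of SLC38A2 without high glucose library 3 or 4. These 4 were 13.3% of those tested, against 8.68% of all genes. In the osmotic stress list 3 of 13 rose, SGK1, AKR1B1 and SLC38A2, which also stand in other lists, and the salt-responsive TSC22D2 changed by -0.28. The call of TSC22D2 was lost without the number term and in libraries 1 to 3 alone. A raised osmolarity of the high glucose medium was not measured and cannot be told apart from glucose as a sugar, since the labels name no osmotic control.

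Of 38 cell cycle and replication genes 5 fell and none rose, with a median of -0.08. That was 13.2% of those tested, against 8.68% of all genes and 10.1% of protein-coding genes. E2F1 was at 123 to 129.6 CPM in high glucose and 139 to 161 CPM in normal glucose (-0.24 ± 0.053, adjusted p = 0.003), and its call was kept without each WT library in turn. GINS2 (-0.18) lost its call without any 1 of 4 libraries, UHRF1 (-0.16) without any 1 of 7 libraries, and MCM2 (-0.16) and PLK1 (-0.22) without any 1 of 8 libraries each. Among 20 p53 targets 3 rose and 2 fell: CDKN1A, the p21 brake on cyclin kinases, changed by -0.25 ± 0.055 (207 to 239 CPM in high glucose, 245 to 280.0 CPM in normal glucose, adjusted p = 0.0031), whereas GADD45A (0.27), BTG2 (0.35) and the death receptor FAS (0.34) rose, and GADD45B changed by -0.25, a call lost without any 1 of 7 libraries. Among 27 autophagy and lysosome genes 1 rose, WIPI1 (0.34), and 4 fell, the protease CTSD (-0.32 ± 0.053, adjusted p = 6.9e-05), NEU1 (-0.26), FLCN (-0.24) and ULK1 (-0.23). These were 18.5% of those tested. The calls of NEU1 and FLCN were lost without any 1 of 4 libraries each, and that of ULK1 without the number term and in libraries 1 to 3 alone.

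Tight junction transcripts, which the question of the barrier puts first among the structural genes, gave 1 rise and 6 falls in 37 tested members. These were 18.9% of those tested, against 8.68% of all genes. CLDN1, a sealing claudin, was at 1016, 969.6, 1095, 1097 and 961 CPM in high glucose and 785, 830.2 and 848 CPM in normal glucose (lowest, median and highest), a rise of 0.32 ± 0.050 without overlap (adjusted p = 3.4e-05). LSR, which recruits proteins to junctions where 3 cells meet, changed by -0.24 ± 0.051 (adjusted p = 0.0017), AMOTL2 by -0.27 ± 0.061 (adjusted p = 0.004) and AMOT by -0.27. The remaining falls were CLDN23 (-0.26), PARD6B (-0.22) and PRKCZ (-0.21), and the call of CLDN23 was lost without high glucose library 5 and that of PRKCZ without any 1 of 6 libraries. TJP1, the scaffold ZO-1, was at 217 to 303 CPM in high glucose and 216 to 319 CPM in normal glucose, with a log2 fold change of -0.05 ± 0.056 (adjusted p = 0.64). OCLN, occludin, had -0.06 ± 0.048 (adjusted p = 0.51) and CLDN4 had -0.07 ± 0.059 (adjusted p = 0.55). None of these 3 was called.

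Adherens junctions and desmosomes gave 2 rises and 5 falls in 25 tested members, 28% of those tested against 8.68% of all genes. CDH1, E-cadherin, was at 704 to 894 CPM in high glucose and 843 to 1017 CPM in normal glucose and changed by -0.17 ± 0.046 (adjusted p = 0.017). That call was lost without high glucose library 1 or 5 or normal glucose library 1 or 3, and without the number term (adjusted p = 0.21). PPL, periplakin, changed by -0.20, AFDN, afadin, by -0.20, PKP2, plakophilin 2, by -0.20 and DSC3, desmocollin 3, by -0.23. The rises were in VCL (0.16) and PERP (0.18), the call of PERP being lost without high glucose library 3 or normal glucose library 4 or 6 and that of VCL without any 1 of 5 libraries. Of 7 connexins and pannexins only PANX1 was called (-0.17), with an adjusted p of 0.048, a call lost without any 1 of 10 libraries. Of 24 keratins and epithelial factors 2 rose and 3 fell. KRT19, a keratin of simple epithelium, was at 986, 1035, 971, 984 and 991 CPM in high glucose and 1129, 1231 and 1310.3 CPM in normal glucose, a change of -0.31 ± 0.046 without overlap (adjusted p = 2.3e-05). ELF3, an epithelial transcription factor, changed by -0.31 ± 0.052 (adjusted p = 0.00011) and GRHL2 by -0.19. KRT6A, a keratin of activated epithelium with close paralogs, rose by 0.67 ± 0.15 at 3.24 to 5.12 CPM in high glucose and 2.25 to 3.02 CPM in normal glucose (adjusted p = 0.0036), and EHF rose by 0.43, a call lost without any 1 of 5 libraries.

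LAMA3, an alpha chain of the laminins of the epithelial basement membrane, rose, and ITGB4, a chain of the integrin that binds them, fell. The beta chain LAMB3 averaged 1452 CPM in high glucose and 1359 CPM in normal glucose and was not called (0.12 ± 0.093, adjusted p = 0.49). LAMA3 was at 464, 500.4, 505, 633 and 599.6 CPM in high glucose, against 346, 391 and 437 CPM in normal glucose (lowest, median and highest), a rise of 0.49 ± 0.066 (adjusted p = 6e-06). ITGB4 was at 1150.4, 1169, 1065, 1332 and 1260.1 CPM in high glucose, against 1455, 1548 and 1657 CPM in normal glucose, a change of -0.36 ± 0.055 (adjusted p = 2.4e-05). LAMA3 and ITGB4 did not overlap between the groups. In the whole list of integrins, matrix and mesenchymal genes 4 of 33 tested members rose and 4 fell, among them also ITGA2 (0.45) and LAMC1 (0.15), which rose, and LAMA5 (-0.27), COL5A1 (-0.21) and COL12A1 (-0.59), which fell. The call of LAMC1 was lost without any 1 of 7 libraries, that of COL5A1 without any 1 of 8 libraries and that of COL12A1 without any 1 of 9 libraries.

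Secreted proteases and their inhibitors were among the lists with most rises, 8 of 24 tested members, with 1 fall. PLAT, the tissue plasminogen activator, was at 37.0, 37.8, 35.2, 34.0 and 33.5 CPM in high glucose and 21.2, 23.5 and 24.9 CPM in normal glucose (lowest, median and highest), a rise of 0.60 ± 0.075 without overlap (adjusted p = 9e-07). SERPINE2, an inhibitor of thrombin and plasminogen activators, rose by 0.79 ± 0.13 (7.21 to 9.27 CPM in high glucose, 4.17 to 5.54 CPM in normal glucose, adjusted p = 0.00012). TIMP3, an inhibitor of metalloproteinases held in the matrix, was at 11.5, 10.0, 12.2, 10.0 and 9.47 CPM in high glucose and 13.8, 15.3 and 19.5 CPM in normal glucose, a change of -0.58 ± 0.091 (adjusted p = 3.4e-05). The gelatinases MMP9 (0.78, 56.3 to 71.1 CPM in high glucose and 31.8 to 41.4 CPM in normal glucose) and MMP2 (0.38), the sheddase ADAM17 (0.25), SERPINB5 (0.46), TIMP1 (0.39) and SERPINB2 (0.45) also rose, the call of TIMP1 being lost without any 1 of 5 libraries and that of SERPINB2 without any 1 of 9 libraries. Of 36 genes of actin, myosin and YAP targets 1 rose, CTGF (0.28 ± 0.067, adjusted p = 0.0054), and 2 fell, TPM1 (-0.20) and AJUBA (-0.20, a call lost without any 1 of 8 libraries). These calls were 8.33% of those tested, against 8.68% of all genes.

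In the list of sodium transport genes 5 of 21 tested members rose, 2 fell and 14 were not called. SCNN1B and SCNN1G, subunits of the epithelial sodium channel, were too low to test. ATP1B1, the beta subunit of the sodium pump, was at 204, 205, 215, 203 and 181 CPM in high glucose and 154, 162 and 168 CPM in normal glucose (lowest, median and highest), a rise of 0.31 ± 0.045 without overlap (adjusted p = 1.1e-05). PRSS8, prostasin, which cleaves and opens the epithelial sodium channel, was at 251, 279.5, 257, 260.5 and 238 CPM in high glucose and 299, 317 and 338 CPM in normal glucose, a change of -0.31 ± 0.049 (adjusted p = 4.4e-05). SGK1, ATP1B3 (0.23), the bicarbonate cotransporter SLC4A7 (0.34) and the channel subunit SCNN1A (0.18) were the other rises, and ST14, matriptase, changed by -0.17. The calls of SCNN1A and ST14 were each lost without any 1 of 5 libraries. In the list of chloride, anion, potassium and water transport 1 of 27 rose and 2 fell. These were 11.1% of those tested, against 8.68% of all genes and 10.1% of protein-coding genes. ATP12A, a proton pump of the airway surface, was at 2.89, 4.98, 3.47, 3.93 and 4.24 CPM in high glucose and 1.76, 1.90 and 2.51 CPM in normal glucose, a rise of 0.98 ± 0.19 without overlap (adjusted p = 0.00053). SLC4A2, a chloride and bicarbonate exchanger, changed by -0.32 ± 0.052 (adjusted p = 5.1e-05) and the cotransporter SLC12A4 by -0.26 ± 0.055 (adjusted p = 0.0018). CFTR itself was at 624, 657, 711, 687 and 616 CPM in high glucose and 659.9, 698 and 708 CPM in normal glucose, a log2 fold change of -0.09 ± 0.051 that was not called (adjusted p = 0.33), and the groups overlapped.

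**Figure D3:**
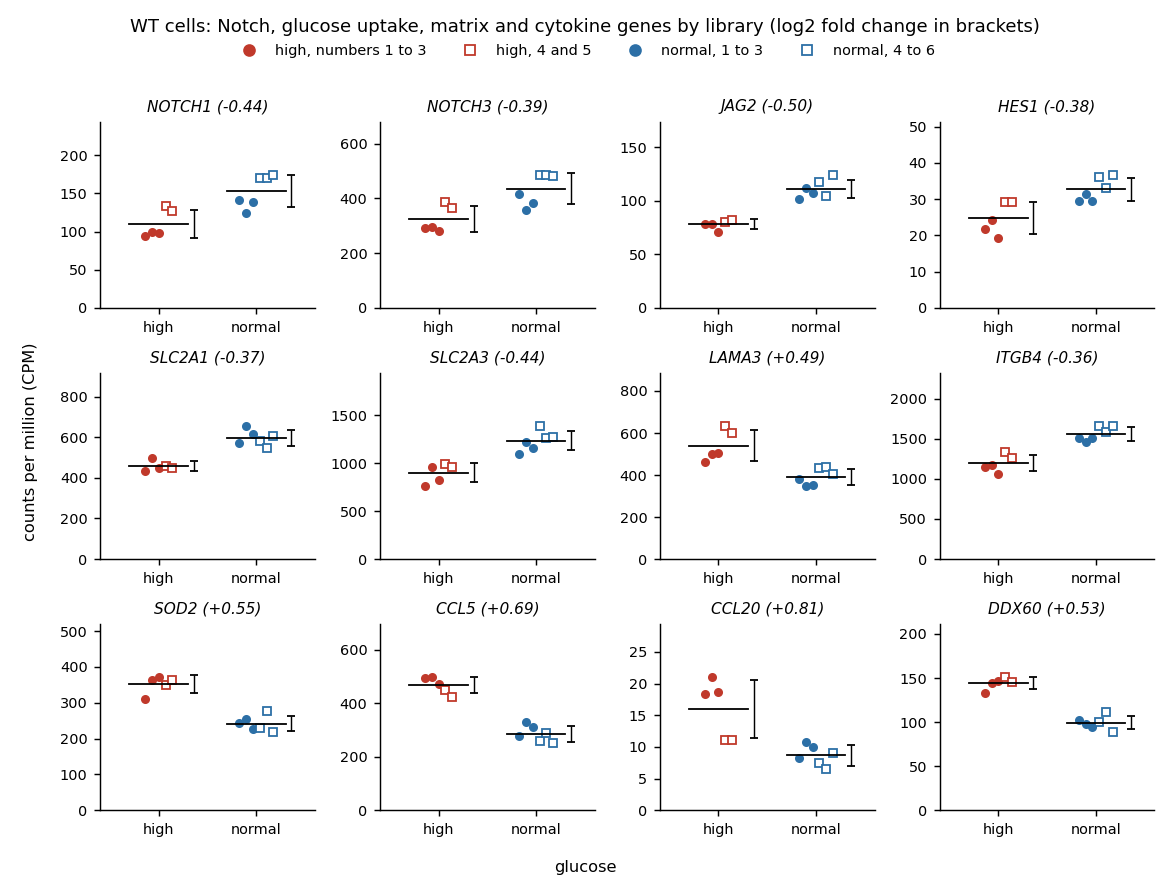
CPM of 12 genes of Notch signalling, glucose uptake, cell-matrix adhesion, cytokines and antiviral defence in WT cells, 1 point per library, high glucose (5 libraries) left of normal glucose (6 libraries). Filled circles are libraries numbered 1 to 3 and open squares those numbered 4 to 6, lines are means and bars are 1 SD, and NOTCH1, NOTCH3 and HES1 differ between the sets of numbers as well as between the media.

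Notch genes gave falls and no rise. Of 21 tested members 7 fell, with a median of -0.10 against -0.003 over all genes, and 5 of the 7 calls were kept without each WT library in turn. Ligands came first: DLL1 is given above, and JAG2 was at 78.5, 78.4, 70.5, 80.5 and 82.4 CPM in high glucose, against 101, 109.8 and 124 CPM in normal glucose (lowest, median and highest), a change of -0.50 ± 0.061 without overlap (adjusted p = 6.7e-07). Among receptors, NOTCH3 was at 293, 296, 282, 386 and 363 CPM in high glucose, against 358, 449 and 486 CPM in normal glucose, a change of -0.39 ± 0.049 (adjusted p = 1.2e-06). NOTCH1 was at 93.8, 99.4, 98.3, 133 and 127 CPM in high glucose, against 124, 155 and 174 CPM in normal glucose, a change of -0.44 ± 0.065 (adjusted p = 2e-05). Both receptors were higher in the libraries numbered 4 and above in each medium, so their groups overlapped overall and did not overlap within either set, and NOTCH3 was not called without the number term (adjusted p = 0.06). HES1, the repressor that Notch switches on, was at 21.8, 24.4, 19.2, 29.3 and 29.3 CPM in high glucose, against 29.4, 32.3 and 36.7 CPM in normal glucose, a change of -0.38 ± 0.073 (adjusted p = 0.00057) without overlap but with a narrow gap. HES4, a second target, changed by -0.33 and the coactivator MAML2 by -0.22, and both of these calls were lost without any 1 of 7 libraries.

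RBPJ, the DNA-binding protein of Notch signalling, recognises the core TGGGAA, which was looked for on both strands in the 250 bases before the start of the 7 Notch genes that fell. Of these, 6 had a window, and HES1 and HES4 held the core, HES1 with 2 copies. At least 2 copies were present in 2.90% of the 35116 windows and at least 1 in 20.8%. The HES1 stretch is shown, with both cores in capitals, because HES1 is the standard readout of the pathway.
HES1 (chr3:194136034-194136113, GRCh38.p14, + strand, 114 to 35 bases before the start): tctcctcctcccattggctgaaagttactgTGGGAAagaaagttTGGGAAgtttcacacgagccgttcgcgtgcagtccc

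Other developmental pathways were mixed. Of 32 Wnt genes 2 rose and 7 fell. ROR2, a receptor for Wnt ligands, was at 31.9, 27.5, 30.8, 25.8 and 26.5 CPM in high glucose and 39.2, 43.8 and 45.8 CPM in normal glucose (lowest, median and highest), a change of -0.60 ± 0.077 without overlap (adjusted p = 1.7e-06). The ligands WNT9A (-0.45 ± 0.066, adjusted p = 1.7e-05), WNT10A (-0.36 ± 0.062, adjusted p = 0.00016) and WNT6 (-0.67) fell, as did LGR4 (-0.19), AXIN1 (-0.21) and FZD1 (-0.26). The call of LGR4 was lost without high glucose library 4 or 5 or normal glucose library 4, that of AXIN1 without any 1 of 4 libraries and that of FZD1 without any 1 of 9 libraries. The receptor FZD4 (0.61) and the antagonist SFRP1 (0.39) rose. Of 30 BMP and TGF-beta genes 2 rose, INHBA (0.30 ± 0.065, adjusted p = 0.0023) and TGFBI (0.22), and 4 fell, NOG, INHBB, BMP6 (-0.28) and ID3 (-0.20). The call of BMP6 was lost without high glucose library 4 and those of ID3 and TGFBI without any 1 of 5 libraries each. INHBA and INHBB, the 2 activin beta chains of the list, thus went in opposite directions.

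In the list of EGF receptor ligands and ERK feedback genes 6 of 25 tested members rose, 1 fell and 18 were not called. DUSP4, a phosphatase that ERK induces, was at 15.2, 14.1, 14.9, 15.7 and 15.5 CPM in high glucose and 9.02, 10.8 and 11.5 CPM in normal glucose (lowest, median and highest), a rise of 0.53 ± 0.094 without overlap (adjusted p = 0.00023). ADAM17, SPRY4 (0.47), ETV4 (0.44), the ligand HBEGF (0.38) and ETV5 (0.34, a call lost without any 1 of 8 libraries) also rose, and the receptor ERBB2 changed by -0.20 ± 0.043 (adjusted p = 0.0018). Of 22 AP-1 and immediate early genes 7 fell and none rose, with a median of -0.19. JUND was at 87.4 to 100.3 CPM in high glucose and 113 to 122 CPM in normal glucose (-0.35 ± 0.058, adjusted p = 7.8e-05), FOSL2 changed by -0.41 ± 0.066 (adjusted p = 7.1e-05) and IER5 by -0.29 ± 0.047 (adjusted p = 6e-05). JUN (-0.43, 183 to 234 CPM in high glucose and 248 to 323 CPM in normal glucose), IER3 (-0.52), JUNB (-0.22) and MAFF (-0.22) made up the rest, the call of MAFF being lost without high glucose library 4 or 5 or normal glucose library 2 and that of JUNB without any 1 of 5 libraries.

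In the insulin and IGF list 3 of 21 tested members rose, 3 fell and 15 were not called. IRS2, a docking protein of the insulin receptor, was at 115, 147, 132, 197 and 193 CPM in high glucose and 176, 223 and 283 CPM in normal glucose (lowest, median and highest), a change of -0.51 ± 0.099 (adjusted p = 0.0022). Its 2 high glucose libraries numbered 4 and 5 lay within the range of normal glucose, and within each set of numbers the groups did not overlap. IRS1 was at 20.3 to 31.5 CPM in high glucose and 36.5 to 50.5 CPM in normal glucose (-0.72, adjusted p = 0.021), a call lost without high glucose library 2, and the receptor INSR changed by -0.24, a call lost when any of 10 libraries was left out. IGFBP6, which binds IGF2, rose by 0.62 ± 0.098 (27.6 to 44.6 CPM in high glucose, 18.3 to 30.0 CPM in normal glucose, adjusted p = 9.2e-05). SOCS2, a brake on growth hormone signals, rose by 0.66 ± 0.15 (adjusted p = 0.003), and IGFBP4 rose by 0.22.

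Cytokine and chemokine genes gave rises and no fall. Of 38 tested members of the cytokine, chemokine and NF-kB list 11 rose, the median was 0.15, and 6 of the 11 calls were kept without each WT library in turn. CCL5, which attracts T cells, was at 495, 498, 472, 450.4 and 425 CPM in high glucose, against 251, 284 and 329.6 CPM in normal glucose (lowest, median and highest), a rise of 0.69 ± 0.090 without overlap (adjusted p = 2.7e-05). CCL20, which attracts dendritic cells, was at 18.4, 21.0, 18.6, 11.2 and 11.2 CPM in high glucose, against 6.46, 8.60 and 10.7 CPM in normal glucose, a rise of 0.81 ± 0.12 (adjusted p = 1.5e-05). Both CCL20 groups were higher in the libraries numbered 1 to 3, and the groups came close without overlapping. SOD2, the mitochondrial dismutase that NF-kB induces, was at 309, 363, 371, 351 and 365 CPM in high glucose, against 219, 236 and 276 CPM in normal glucose, a rise of 0.55 ± 0.070 (adjusted p = 4.9e-06). CXCL5 (0.59), IL6 (0.46) and IL18 (0.35) rose without overlap. TNFSF10 (1.04, a mean of 1.21 CPM in high glucose and 0.581 CPM in normal glucose), IL36G (1.34, 0.645 and 0.271 CPM in the same order of media), CSF1 (0.30), IL1A (0.20) and TRAF1 (0.51) were also called. The calls of TNFSF10 and CSF1 were lost without high glucose library 4, those of IL36G and IL1A without any 1 of 6 libraries each and that of TRAF1 without any 1 of 9 libraries.

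Of 39 tested interferon-stimulated genes and RNA sensors 9 rose and none fell, and the median was 0.10. DDX60, a helicase of antiviral sensing, was at 133, 144, 147, 151 and 145 CPM in high glucose, against 89.2, 98.8 and 112 CPM in normal glucose (lowest, median and highest), a rise of 0.53 ± 0.060 without overlap (adjusted p = 1.9e-07). IFI44 rose by 0.55 ± 0.11 (adjusted p = 0.0011) and overlapped through normal glucose library 2, at 12.6 CPM. The exonuclease ISG20 rose by 0.37 ± 0.083 (adjusted p = 0.0029), the RNA sensor DDX58 by 0.40, MX1 by 0.24, OAS1 by 0.34, OASL by 0.44, OAS2 by 0.47 and MX2 by 0.53, the call of OASL being lost without high glucose library 4 or 5 or normal glucose library 3 and those of OAS2 and MX2 without any 1 of 6 libraries each. MHC class I antigen presentation, which interferon also drives, had 0 calls in 18 tested members and a median of -0.04. Prostaglandin genes had 0 calls in 11, and over all genes tested 8.68% were called.

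Innate defence genes of the airway gave 8 rises and 2 falls in 24 tested members, 14 of the 38 listed being too low to test. LCN2, which withholds iron from bacteria, was at 134, 121, 139.9, 131 and 124 CPM in high glucose and 96.4, 102 and 108 CPM in normal glucose (lowest, median and highest), a rise of 0.35 ± 0.050 (adjusted p = 1.1e-05). PI3, the elastase inhibitor elafin, rose by 1.10 ± 0.16 at 2.95 to 5.58 CPM in high glucose and 1.71 to 2.64 CPM in normal glucose (adjusted p = 1.5e-05). C3, the central complement protein, was at 824, 850.4, 802, 1030.0 and 954 CPM in high glucose and 1031, 1131 and 1264 CPM in normal glucose, a change of -0.34 ± 0.046 (adjusted p = 3.2e-06). LCN2 and PI3 did not overlap between the groups, and neither did C3, with a narrow gap between high glucose library 4 and the lowest normal glucose library. The antiprotease SERPINA1 (0.64), complement factor CFB (0.54), SLPI (0.25), CD59 (0.19) and the acute phase genes SAA2 (0.45) and SAA1 (0.25), near-identical paralogs that can share reads, rose as well, and MUC1 changed by -0.28. The call of MUC1 was lost without high glucose library 4 and that of CD59 without any 1 of 6 libraries. Among vitamin D, glucocorticoid and clock genes 2 of 22 rose, CYP24A1 and CYP27B1 (0.41), the enzymes that break down and make active vitamin D, and 2 fell, the glucocorticoid receptor NR3C1 (-0.23 ± 0.050, adjusted p = 0.0023) and TEF (-0.23, a call lost without any 1 of 10 libraries).

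Of 651 lincRNA genes 7 rose and 18 fell (3.84% called), and of 952 antisense genes 4 rose and 14 fell (1.89%), against 8.68% of all genes tested. Protein-coding genes numbered 13245, of which 655 rose and 685 fell (10.1%). BLACAT1 was at 6.76, 6.95, 6.50, 7.14 and 8.63 CPM in high glucose and 3.08, 4.27 and 4.81 CPM in normal glucose (lowest, median and highest), a rise of 0.82 ± 0.12 (adjusted p = 1.4e-05). CMAHP, the human pseudogene of a sialic acid hydroxylase, rose by 1.05 and AC004704.1 by 0.91, at means of 1.01 and 2.44 CPM in high glucose and 0.489 and 1.25 CPM in normal glucose. The falls were in UCKL1-AS1 (-1.02), AC138028.2 (-1.01), LINC01836 (-0.94, a call lost without high glucose library 3 or normal glucose library 2), AC016739.1 (-0.83) and LINC01003 (-0.82, a call lost without any 1 of 4 libraries). AC016739.1 lost its call without the number term and in each set of numbers alone. ZFPM2-AS1 rose by 0.88, a call lost without the number term, in libraries 1 to 3 alone, from FPKM plus 0.1 and from FPKM without a filter. IKBKGP1, a pseudogene of the NF-kB regulator IKBKG, rose by 1.19. Its high glucose library 4, at 4.34 CPM, stood far above the other 4, and the call was lost without it and without normal glucose library 4. The strand setting of the counting is not known, so reads of antisense genes cannot be told apart from those of the genes they overlap. Among 1086 transcription factor genes 24 rose and 76 fell, 9.21% in all, against 8.68% of all genes tested and 10.1% of protein-coding genes. Among 502 of the C2H2 zinc finger family 5 rose and 23 fell, a smaller share called than the 8.68% of all genes tested.

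The 2 sets of library numbers differed in 8109 genes, by the term estimated over all 23 WT and CF libraries. That count cannot be set against the 1418 of the glucose contrast, which compares 11 libraries. Without the term 484 genes were called between the media, and all 484 were among the 1418. The term lowered the median SE of a log2 fold change to 0.0876, against 0.120 without it. The genes of lowest p among those called only with the term included NOTCH3, AHDC1, PIEZO1, AGRN, PKD1, RCAN1 and MSMO1. PIEZO1, a stretch-activated channel, was at 556, 544, 531, 700.3 and 693 CPM in high glucose, against 657, 769 and 901 CPM in normal glucose (lowest, median and highest), a change of -0.33 ± 0.045 (adjusted p = 4.9e-06, and 0.09 without the term). AGRN, the matrix proteoglycan agrin, was at 1346, 1352, 1274, 1757 and 1657 CPM in high glucose, against 1651, 1859 and 2075 CPM in normal glucose, a change of -0.32 ± 0.046 (adjusted p = 1.1e-05). In both genes the high glucose libraries 4 and 5 lay within the normal glucose range and each set alone had no overlap. RCAN1, an inhibitor of calcineurin, rose by 0.37, and AHDC1 changed by -0.40 and PKD1 by -0.36. Other named genes lost the call without the term too, among them FDFT1, WNT10A, INHBA, EGLN1, SLC12A4, GYG1, HSPA4, AFDN, UAP1L1, CYP27B1 and PPL. The last 3 of these also lost it in each set of numbers alone.

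All 1418 called genes had the same sign in both sets, against 69.3% of all genes tested, a figure that the pooled fit partly fixes. Across all genes tested, the glucose responses of libraries 1 to 3 and of libraries 4 to 6 had a Pearson r of only 0.33. The responses of WT and CF cells had an r of 0.39 across the same genes. No gene was called for a difference of the glucose response between the sets (0 of 16338, 0%, edgeR), while 448 had an unadjusted p under 0.05, and DESeq2 also called none, with 388 at an unadjusted p under 0.05. In a fit with a mean for each group and set, 606 genes were called among the libraries numbered 1 to 3 and 550 among those numbered 4 to 6, and 276 were called in both, all with the same sign. TXNIP changed by 1.17 in libraries 4 to 6 and by 1.19 in libraries 1 to 3, DLL1 by -0.95 and -0.88, and HK2 by -0.97 and -0.79 in the same order of sets. CYP24A1 changed by 1.20 in libraries 4 to 6 and 0.83 in libraries 1 to 3. PURA had the lowest p for a difference between the sets (0.39 ± 0.10, unadjusted p = 0.00045), followed by APOD, TSACC, STRADB, CCDC173 and SP2-AS1, and none of the 6 was called.

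**Figure D4:**
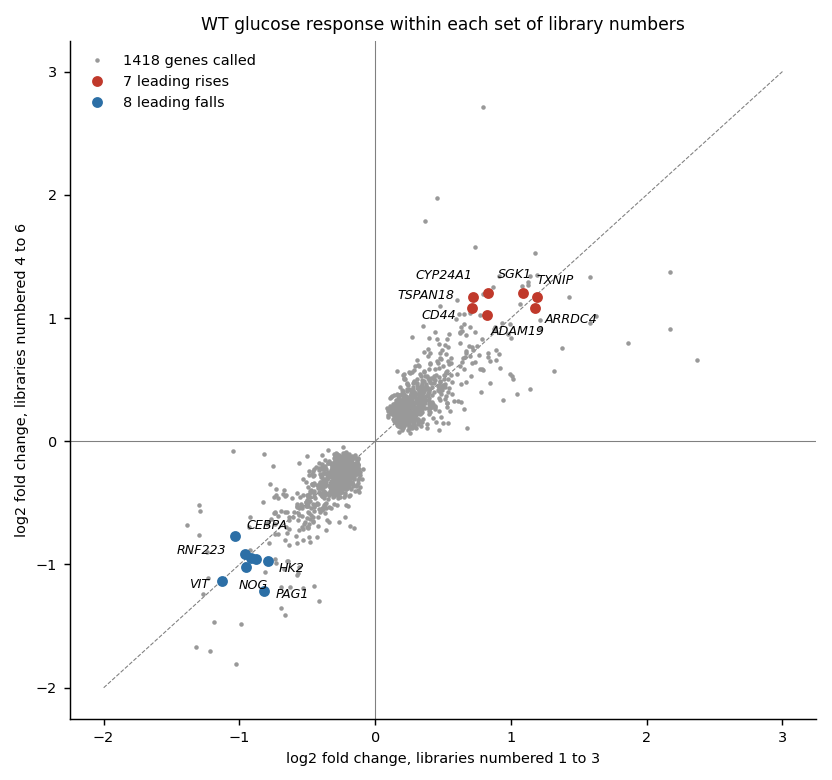
Log2 fold change of high against normal glucose in WT libraries numbered 4 to 6 (vertical) and 1 to 3 (horizontal) for the 1418 genes called in the fit of both sets (grey), with 7 leading rises and 8 leading falls in colour. The dashed line marks equal change, and each point has the same sign on both axes. Of all genes tested, called or not, 69.3% had the same sign in both sets.

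The CF line gave a reference for how much of the WT response was shared. In CF cells 2812 of 16338 genes were called between the same media (17.2%), and 363 genes rose in both lines and 381 fell in both, 52.5% of the WT calls and 26.5% of the CF calls. Opposite calls were few: 3 genes rose in WT and fell in CF cells and 5 fell in WT and rose in CF cells. The difference of the responses itself was called for 146 genes (0.894%), 49 of them among the 1418 WT calls. Those 146 calls became 6 without the number term, 61 without high glucose library 3, 87 without high glucose library 2, 82 without normal glucose library 3 and 79 without normal glucose library 6.

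Over all genes tested, 8.68% were called in WT cells, 17.2% in CF cells and 0.894% for the difference. Counts of calls in a list are therefore not on the same footing in the 2 lines. By list, cytokine, chemokine and NF-kB genes gave 11 rises and 0 falls in WT cells, against 6 rises and 9 falls in CF cells, with 5 of the 38 called for the difference. The list of EGF receptor ligands and ERK feedback genes gave 6 rises and 1 fall in WT cells, against 2 rises and 7 falls in CF cells, with 4 of the 25 called for the difference. Interferon genes gave 9 rises in WT cells and 6 in CF cells with no fall in either, and 1 of 39 was called for the difference. Notch genes gave 0 rises and 7 falls in WT cells, against 1 rise and 8 falls in CF cells, with 3 of the 21 called for the difference. The HIF list gave 1 rise and 8 falls in WT cells, against 1 rise and 22 falls in CF cells. Of its 34 genes, 4 were called for the difference. Wnt genes gave 2 rises and 7 falls in WT cells, against 5 rises and 6 falls in CF cells. Of these 32, 5 were called for the difference.

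CEBPA fell in WT cells and was not called in CF cells. It changed by -0.93 ± 0.16 in WT cells, against 0.18 ± 0.14 in CF cells (difference -1.11 ± 0.21, adjusted p = 0.0054). LAMA3 differed by 0.45 ± 0.091 (adjusted p = 0.0099) and SOD2 by 0.42 ± 0.097 (adjusted p = 0.03), each higher in its WT response. JAG2, WNT10A, SREBF1 and ERBB2 fell in WT cells and were near 0 or less negative in CF cells, with WT minus CF differences of -0.34 for JAG2, -0.34 for WNT10A, -0.36 for SREBF1 and -0.24 for ERBB2. In contrast, HK2 changed by -0.87 ± 0.11 in WT cells, against -1.52 ± 0.10 in CF cells (difference 0.65 ± 0.14, adjusted p = 0.034), ROR2 by -0.60 and -1.17, and PLIN2 by -0.35 and -1.15, WT cells first in each pair. CTGF rose in WT cells (0.28) and fell in CF cells (-0.35), a difference of 0.63 ± 0.098 (adjusted p = 0.00081). PHLDB2 (0.26 in WT cells, -0.17 in CF cells), FHL2 (0.19 and -0.35), HDAC9 (-0.17 and -0.76) and APCDD1 (-0.03 and 0.44) had the lowest p for the difference together with PLIN2 and CTGF, and of these FHL2, HDAC9 and APCDD1 were not called in WT cells. TXNIP (1.17 in WT cells, 1.96 in CF cells) and ARRDC4 (1.12 and 1.75) were not called for a difference (adjusted p = 0.084 and 0.17).

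**Figure D5:**
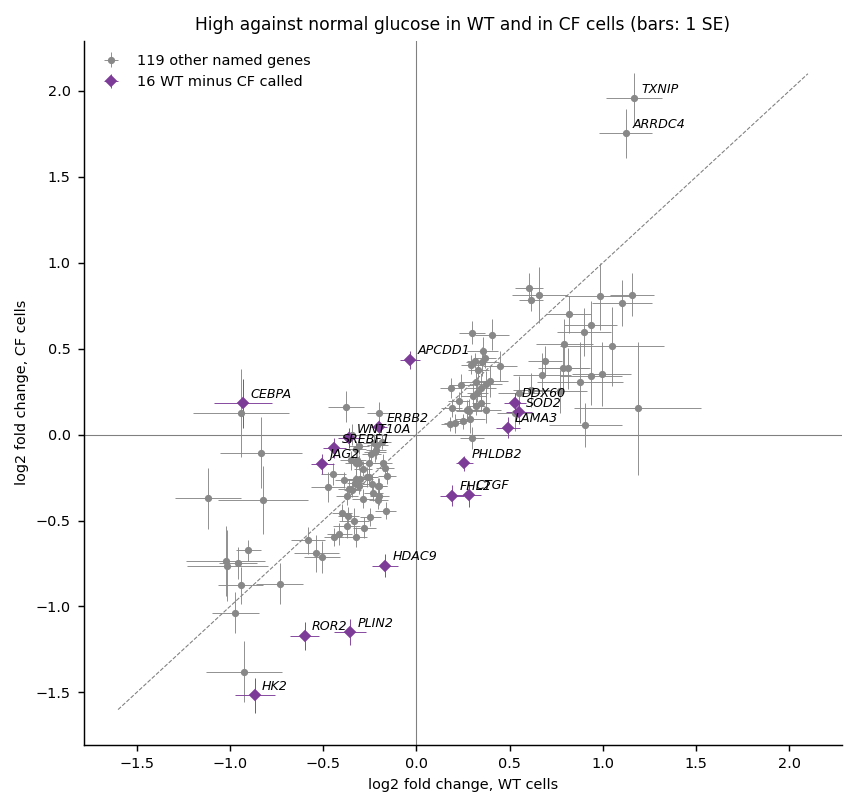
Log2 fold change of high against normal glucose in WT cells (horizontal) and in CF cells (vertical) for the named genes called in WT cells or for the difference, with bars of 1 SE. The 16 genes whose response differed between the lines (adjusted p under 0.05) are purple diamonds, the dashed line marks equal change, and TXNIP and ARRDC4 lie high in both lines.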

How the data were processed

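Total RNA of 26 libraries was sequenced, and the authors deposited a table of read counts per gene and a table of FPKM (fragments per kilobase, scaled to library size) for the same 58735 genes. HISAT2 and the build hg38 are named in the submitters' processing notes. The counting tool, its strand setting and versions were not given in the sources used here, and per the labels' protocols library kits with either dUTP or dTTP were used, so reads of antisense, overlapping and near-identical genes cannot be assigned with certainty. All gene identifiers matched GENCODE release 29, which gave names, biotypes and GRCh38 coordinates.

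From the deposited counts, CPM were scaled by TMM factors and 23 libraries (WT and CF, both media) were fitted in edgeR 4.0.16 (R 4.3.3) by the robust quasi-likelihood method, with 4 group means and a term for library number 1 to 3 against 4 to 6. Genes passed filterByExpr (minimum count 10, total 15). SE is the size of the log2 fold change divided by the square root of F, and p-values were Benjamini-Hochberg adjusted over all genes tested, with calls under 0.05. Differences between sets of numbers came from a fit with 8 means. The script was tested on simulated counts with 200 changed genes. The authors' FPKM entered only alternatives, with limma 3.58.1 on log2(FPKM + pseudocount). Other alternatives were DESeq2 1.42.0, other scalings, filters and terms, and each of the 11 WT libraries left out in turn (no CF library was left out). Libraries were counted at 15247622 to 20413839 reads, and no 2 libraries of a group agreed within sampling noise (mean chi-square per gene of 4.03 to 38.1 per pair).

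Named genes were the 8 largest rises and falls among called protein-coding genes (mean of at least 5 CPM, same sign in both sets), up to 3 called genes of lowest p per list, the 8 of lowest p called only with the term, the 5 largest rises and falls among non-coding genes (mean of at least 1 CPM), the 6 of lowest p for a difference between sets or lines, and CFTR, TXNIP, ARRDC4, HK2, TJP1, OCLN, CLDN4 and CDH1. Other called members are named as the rest of their list, and some genes are not reported here. Members, lists and markers were chosen with earlier results of these data known. Sequences are RefSeq windows of GRCh38.p14, matched by symbol, and as 66.9% of tested genes had one, motif shares among called genes were not computed.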

Additional observations from a re-analysis of the deposited data

Results flagged for a closer look

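A library stood apart from the rest of its group in 12 of 270 groups of values of named genes (4.44%), by Dixon's criterion, which chance meets in about 1 in 20 groups. In high glucose these were NOG in library 2 (37.0 CPM), PPP1R3G in library 2 (11.7 CPM), GADD45A in library 1 (69.0 CPM), CTSD in library 5 (174 CPM, the one low value) and IKBKGP1 in library 4 (4.34 CPM). In normal glucose they were ADAM19 in library 1 (20.9 CPM), UAP1L1 in library 6 (32.0 CPM), ERN1 in library 5 (19.1 CPM), and in library 2 NOG (67.1 CPM), IFI44 (12.6 CPM), LINC01836 (3.88 CPM) and ATP12A (2.51 CPM). Normal glucose library 2 thus held 4 of the 12.

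The glucose response differed between WT and CF cells for 16 of the genes reported (edgeR, adjusted p under 0.05), given here as the WT minus the CF log2 fold change. The difference was above 0 for PLIN2 (0.79), HK2 (0.65), CTGF (0.63), HDAC9 (0.59), ROR2 (0.57), FHL2 (0.55), LAMA3 (0.45), PHLDB2 (0.42), SOD2 (0.42) and DDX60 (0.34). PLIN2, HK2 and ROR2 are among these because they fell less in WT cells than in CF cells. The difference was below 0 for CEBPA (-1.11), APCDD1 (-0.47), SREBF1 (-0.36), WNT10A (-0.34), JAG2 (-0.34) and ERBB2 (-0.24). Both lines are single cell sources, so the CFTR genotype cannot be told apart from other differences between them.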

How the results depend on the processing

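No called named gene changed direction in any of 27 alternative settings. Of 135 named genes called, 79 lost the call in at least 1 setting, 42 of them without the number term, and 16 lost it when 1 library was left out. The number of WT calls was 484 without the number term (244 higher, 240 lower), 424 in libraries 1 to 3 alone (208 higher, 216 lower), 823 in libraries 4 to 6 alone (384 higher, 439 lower) and 808 from FPKM without a filter (380 higher, 428 lower). The sets alone hold fewer libraries. For the other 2 drops the cause was not tested. Leaving out each WT library in turn gave 1007 to 1612 calls, 499 to 824 higher and 468 to 788 lower. DESeq2 called 1751 genes, WT libraries alone 1854 and a number term for each line 1840. With a block for each library number in place of the 2-level term, 1092 genes were called, 1079 of them among the 1418, and libraries of high and normal glucose share only a number: the correlation of their deviations from the group means was as low as 0.061 for a same-numbered pair, and averaged 0.236 for the same number and 0.225 for other numbers of the same set, so they were not taken as pairs. Other scalings moved the median of all genes to between -0.0042 and 0.0038. The 146 calls of WT minus CF became 6 without the number term, 73 with the replicate block, 1 in libraries 1 to 3 alone, 387 in libraries 4 to 6 alone, 297 with a term for each line, 353 with DESeq2, 254 without a low-count filter, 74 from FPKM plus 1, 76 from FPKM plus 0.1, 16 from FPKM without a filter, and 61 to 214 without single WT libraries, and the cause was not tested. The count of genes whose response differed between sets was 0 under every alternative run for it. In windows of 300 bases in place of 250, CACGTG was held by 7.26% and TGGGAA by 24.0%. Depth limits genes of a few CPM, such as IL36G and CMAHP.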
